A study of Mus musculus with 216 samples.

Results

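The regions described here, called intronic, are H3K9me3 domains inside protein-coding genes but off exons of coding transcripts, in mouse embryonic stem cells. A domain was taken when it lay inside a GENCODE vM21 protein-coding gene body, overlapped no exon of a protein-coding transcript, and stayed outside a window of 1 kb to either side of every protein-coding transcript start. On the 17 autosomes used (all but chromosomes 8 and 11), 5790 of 34389 domains (16.8%) met this rule, out of 43039 domains in the authors' deposited table. The choice used positions only, so the decay class of a domain played no part in it. The comparison sets on the same chromosomes were 22047 intergenic domains, which touch no gene of any type and no promoter window, and 1634 exonic domains, which overlap a protein-coding exon but no promoter window.

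The line is called dTKO, and its genotype is given as Suv39h1fl/fl; Suv39h2-/-; Setdb1fl/fl. The Suv39h2-/- alleles were thus shared by every sample, the 0 h samples included. Cells received 100 µg/ml auxin together with 0.5 µM dTAG13, a pair of degrader compounds that mark tagged proteins for destruction, and were collected after 0, 1, 3, 12, 24 and 48 h. The libraries comprised H3K9me3, HP1β and their inputs, from 3 biological repeats per time with 3 runs each, 216 runs in all. For each precipitation, 1.5 µg of fly (Drosophila) chromatin was mixed as a spike-in into 20 µg of cell chromatin. From the time course the authors gave each domain 1 of 4 decay classes, named fast, intermediate, slow and residual. The table has no value per sample or time, so no share below has an error between cultures, the depth behind each class is unknown, and nothing was tested. The limits between the classes, and the rank of the residual class, are not stated in the sources.

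H3K9me3 is the histone mark of constitutive heterochromatin and is bound by HP1 proteins. In embryonic stem cells SETDB1, recruited by KRAB zinc finger proteins and TRIM28, places it on endogenous retroviruses, while the SUV39H enzymes act on pericentromeric repeats and on some LINE-1 elements. Introns carry many such retroelements. A retrovirus-like element has a long terminal repeat (LTR) at either end and, just inside the first one, a primer binding site where a tRNA starts reverse transcription. The tRNA is a family trait: intracisternal A particles (IAP), a mouse family that is still mobile, use the phenylalanine tRNA.

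Several sequences recur among the intronic domains, and they are shown first because later paragraphs give the classes of the domains that hold them. The primer binding sites were deduced from tRNA genes annotated by RefSeq on GRCm38.p6, as TGG followed by the complement of the last 15 bases before the added CCA end. The most frequent ones are printed 5′ to 3′ with the TGG in capitals.
Isoleucine site, 95 copies: TGGtggcccgtacgggga
Phenylalanine site, 53 copies: TGGtgctgaaacccggga
Glycine site, 16 copies: TGGtgcattggccgggaa
Leucine site, 12 copies: TGGtaccaggagtggggt
Lysine site, 11 copies: TGGcgcccaacgtggggc
Proline site, 10 copies: TGGgggctcgtccgggat

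A search that used no repeat annotation gave 4 shared sequences of 24 bases. The commonest 24-mer is the one found in the most intronic domains. The slow and the fast 24-mer are those whose share of holders in that class exceeds their share in the other intronic domains by the most. The LTR-side 24-mer is the one found most often in the 300 bases before a phenylalanine site.
Slow 24-mer: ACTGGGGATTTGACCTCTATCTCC
LTR-side 24-mer: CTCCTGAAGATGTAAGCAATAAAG
Fast 24-mer: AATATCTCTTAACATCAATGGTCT
Commonest 24-mer: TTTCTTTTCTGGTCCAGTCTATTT

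One slow domain shows how these parts sit together. It covers 17.7 kb of intron 3 of Pag1, an adaptor gene of lipid rafts (chr3:9727201-9744900, mm10) and holds an exact antisense phenylalanine site, the LTR-side 24-mer before it and the slow 24-mer. Pag1 is transcribed from the minus strand, and the printed plus strand (chr3:9731361-9731660) is therefore antisense to it. Capitals mark first the LTR-side 24-mer, from base 73, and then the primer binding site, from base 163.
Pag1 slow domain, LTR side and primer binding site: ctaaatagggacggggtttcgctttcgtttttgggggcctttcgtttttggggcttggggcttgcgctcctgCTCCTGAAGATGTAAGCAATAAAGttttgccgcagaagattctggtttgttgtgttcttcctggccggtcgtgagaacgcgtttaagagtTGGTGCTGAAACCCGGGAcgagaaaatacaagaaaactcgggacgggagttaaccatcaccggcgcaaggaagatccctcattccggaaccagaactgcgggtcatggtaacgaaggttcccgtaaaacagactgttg
Further along the same strand of the same domain (chr3:9737829-9737978) stands the slow 24-mer, in capitals, with a purine-rich run after it.
Pag1 slow domain, slow 24-mer: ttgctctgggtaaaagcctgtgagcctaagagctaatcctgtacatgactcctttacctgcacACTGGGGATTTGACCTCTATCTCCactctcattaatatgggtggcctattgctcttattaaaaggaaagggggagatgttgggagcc

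The longest fast intronic domain holds the fast 24-mer. It covers 9.9 kb of intron 36 of Pkhd1 (chr1:20431201-20441100, mm10), the fibrocystin gene of polycystic kidney disease, which lies on the minus strand. The stretch below is the plus strand (chr1:20434960-20435109), with the 24-mer in capitals. From the 24-mer on it reads through 28 codons without a stop in the second frame. Those letters are recognisable as the start of the second open reading frame of LINE-1, which encodes its endonuclease and reverse transcriptase. That assignment rests on the known protein and not on an annotation.
Pkhd1 fast domain, fast 24-mer: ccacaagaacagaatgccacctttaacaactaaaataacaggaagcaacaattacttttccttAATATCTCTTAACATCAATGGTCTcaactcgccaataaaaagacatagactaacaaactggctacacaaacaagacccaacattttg

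An intermediate domain in intron 1 of BC067074 (chr13:113301601-113312100, mm10) shows the isoleucine site, in capitals, on the strand opposite the gene (chr13:113310342-113310491, minus strand).
BC067074 intermediate domain, isoleucine site: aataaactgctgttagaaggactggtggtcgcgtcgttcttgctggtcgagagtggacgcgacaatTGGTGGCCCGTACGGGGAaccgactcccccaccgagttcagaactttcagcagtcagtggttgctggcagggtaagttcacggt

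The longest residual domain holds neither an exact primer binding site nor any of the 4 24-mers shown. It covers 33.3 kb of intron 17 of Kcnq1 (chr7:143316901-143350200, mm10), and its central 300 bases (chr7:143333401-143333700, plus strand, the strand of the gene) hold 2 CpG dinucleotides, in capitals.
Kcnq1 residual domain, centre: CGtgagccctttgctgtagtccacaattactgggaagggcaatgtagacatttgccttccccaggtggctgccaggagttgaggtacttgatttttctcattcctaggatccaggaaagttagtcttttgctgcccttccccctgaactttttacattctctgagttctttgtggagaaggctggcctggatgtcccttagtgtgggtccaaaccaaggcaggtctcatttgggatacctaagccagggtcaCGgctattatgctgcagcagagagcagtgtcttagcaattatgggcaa

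Introns carried H3K9me3 domains sparsely. The intronic domains covered 19.1 Mb of 789 Mb of intron sequence away from exons and promoter windows (2.42%), against 86.6 Mb of 1117 Mb of intergenic sequence (7.75%). This is 7.34 domains per Mb in introns and 19.7 per Mb between genes. Intronic domains were short, with a median width of 2.7 kb and a range from 0.3 to 33.3 kb, and intergenic domains had a median of 3.0 kb.

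Most intronic domains decayed at the intermediate rate. Of the 5790, 4507 were intermediate (77.8%, 95% interval 76.7 to 78.9), beside 76.7% of all domains on the 17 autosomes. Another 953 were slow (16.5%, 15.5 to 17.4), beside 18.1% of all domains. A further 194 were fast (3.35%, 2.90 to 3.85), beside 2.93%, and 136 were residual (2.35%, 1.97 to 2.77), beside 2.25%. Each share thus stood within 2 percentage points of that over all domains, which the intronic ones are part of. The intervals are exact binomial ones and cover counting error only, since neighbouring domains and copies of one repeat are not independent.

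Set against intergenic domains, intronic domains were residual more often, at 2.35% against 1.05%, a difference of 1.30 points (95% interval 0.914 to 1.74). The intronic share was higher on 14 of 17 chromosomes. Fast domains made up 3.35% against 2.66%, with the intronic share higher on 12 of 17 chromosomes, and slow domains 16.5% against 18.01%, lower on 13 of 17. The intermediate shares were 77.8% and 78.3%, and the difference of -0.446 points had a 95% interval from -1.66 to 0.740. Exonic domains stood further away, with 8.20% residual, above the intronic share on 17 of 17 chromosomes. When chromosomes 8, 11, X and Y were added, the difference in the fast share turned to -0.197 points. The lower slow share did not hold at equal width: within width classes the difference was 1.08 points in the other direction.

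**Figure D1:**
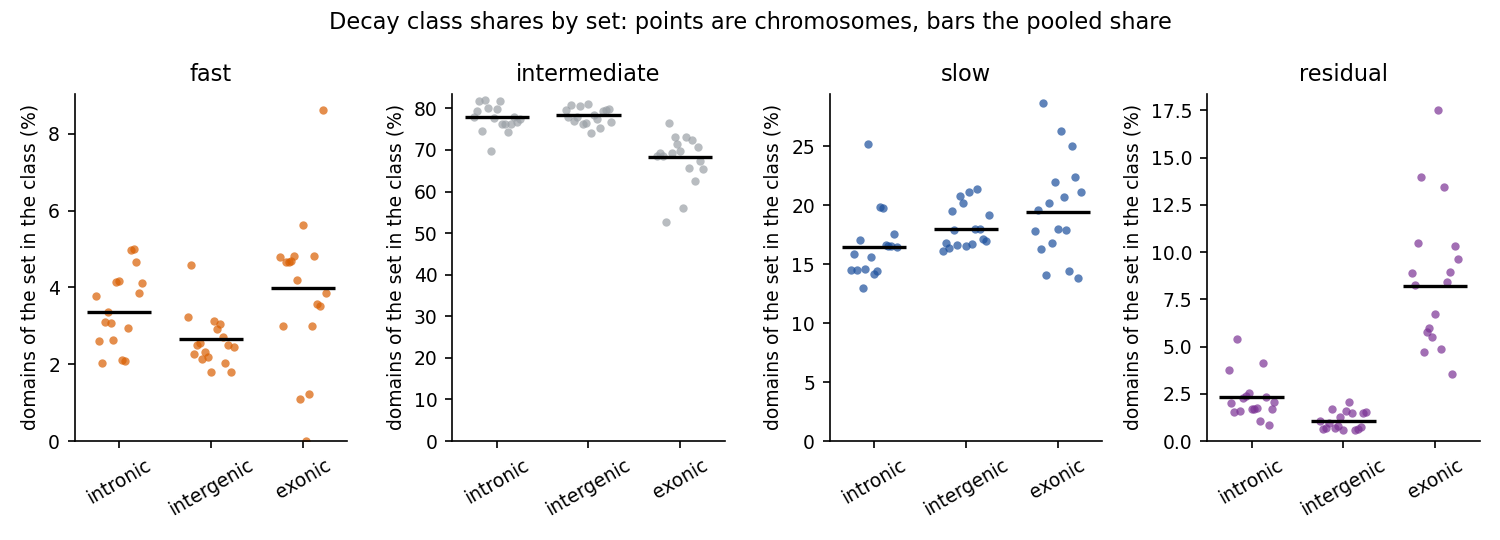
Share of domains in each decay class (y axis, percent, from 0) for intronic, intergenic and exonic domains. Each point is 1 of 17 chromosomes and each bar the share over all of them; the residual share is 2.35% in introns, 1.05% between genes and 8.20% on exons, while the intronic slow share runs from 12.98% to 25.2% over chromosomes.

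Chromosomes differed among themselves. The intronic slow share ran from 12.98% to 25.2% over the 17 chromosomes, the fast share from 2.04% to 5%, while residual domains made up 0.847% to 5.41%. Leaving out any 1 chromosome kept the slow share between 15.8% and 16.8% and the residual share between 2.13% and 2.44%.

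Wide intronic domains were mostly slow. Of 1229 domains up to 1.5 kb, 7.89% were slow, and of 1550 between 3.3 and 6 kb, 18%. From 6.3 to 12 kb the slow share was 54.7% of 490 domains, and above 12 kb 68.8% of 77 (95% interval 57.3 to 78.9). Intergenic domains followed the same order, with 7.30%, 18.4%, 44.6% and 55.8% at these widths. Intronic and intergenic shares thus lay within 1 point of each other up to 6 kb, and the intronic ones were higher above it.

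Most of the wide slow domains held the slow 24-mer, 244 of the 321 over 6 kb. In all it occurred in 302 intronic domains, and 290 of these were slow (96.0%, 95% interval 93.2 to 97.9), while 12 were intermediate and 0 were fast or residual. Put the other way, 30.4% of slow intronic domains and 0.266% of intermediate ones held it. Since the 24-mer was picked for this split, the counts in introns are a description. Intergenic domains took no part in the choice, and there 1255 of 1390 holders were slow (90.3%, 88.6 to 91.8), beside 18.01% of all intergenic domains. On chromosomes 8, 11, X and Y, which were not used either, 374 of 483 holders were slow (77.4%), beside 29.9% of the 8501 domains there.

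Holders of the slow 24-mer were wide, with a median of 8.7 kb, but holders were mostly slow at either width. In introns, where the 24-mer was picked, the counts by width only describe that choice. Among intronic domains over 6 kb, 244 of 250 holders were slow (97.6%), against 77 of 317 domains without it (24.3%, 95% interval 19.7 to 29.4). Up to 6 kb, 46 of 52 holders were slow (88.5%), against 11.3% of 5171 without. Among intergenic domains, which took no part in the choice, 1091 of 1188 holders over 6 kb were slow (91.8%). Up to 6 kb, 164 of 202 intergenic holders were slow (81.2%). Without the 24-mer, 23.7% of 2327 intergenic domains over 6 kb and 11.8% of 18330 up to 6 kb were slow. Holders made up 44.1% of intronic domains over 6 kb and 33.8% of intergenic ones. Among all intronic domains without the 24-mer, 12.1% were slow.

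**Figure D2:**
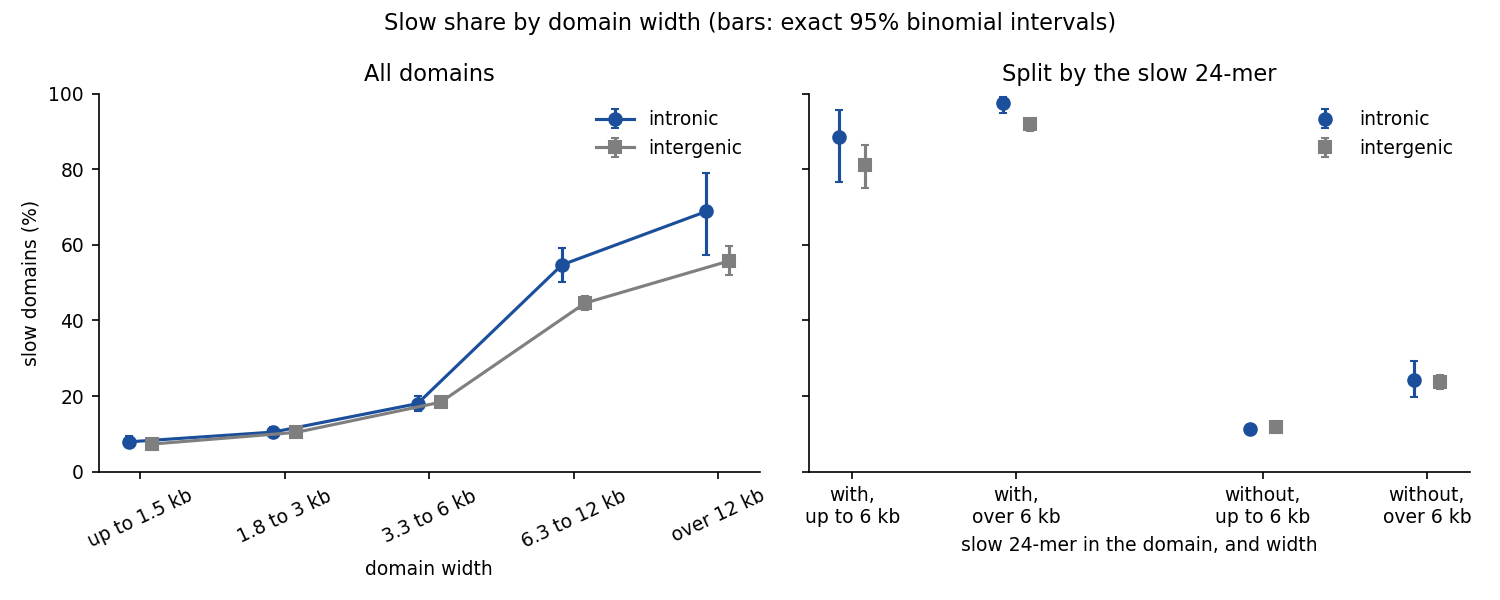
Slow share (y axis, percent, 0 to 100) by domain width for intronic and intergenic domains, left, and split by whether a domain holds the slow 24-mer, right, with exact 95% binomial intervals. The intronic share rises from 7.89% up to 1.5 kb to 68.8% above 12 kb. Over 6 kb it is 97.6% in holders and 24.3% in other domains, with the 24-mer picked on the intronic classes.

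Where the slow 24-mer and a phenylalanine site occurred together, they shared a strand. An exact site lay in 20 of the 302 intronic holders, and a site with up to 1 mismatch in 121 (40.1%), so most holders had none by this search. Over all domains, in 1168 pairs of the 24-mer and such a site (1 mismatch allowed) within 9 kb in 1 domain, both lay on the same strand in 97.5%. The 24-mer stood a median of 3429 bases downstream, with quartiles at 1933 and 4744.5 bases. Of 2762 copies in the genome, 2751 (99.6%) lay inside an H3K9me3 domain. The 302 intronic holders came from 263 genes on 17 chromosomes, with at most 3 in a gene. As copies of 1 element they share sequence, and the median holder had 33.7% unique 31-mers. Reads from such copies may have been placed on one another, and the part of this in the shared class was not tested.

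More than 50% of domains with the LTR-side 24-mer were slow, but those of them without the slow 24-mer were mostly intermediate. The LTR-side 24-mer lay a median of 83 bases upstream of the phenylalanine site and occurred in 334 intronic domains. Of all 334, 197 were slow (58.98%), as were 935 of 1603 intergenic holders (58.3%). The slow 24-mer was picked on the intronic classes, so leaving out its holders takes out mostly slow domains by that choice. Of the 334, 154 lacked the slow 24-mer. They were short, with a median of 2.4 kb, and 131 were intermediate (85.1%, 95% interval 78.4 to 90.3) while 19 were slow (12.3%). That slow share is close to the 12.1% of all intronic domains without the slow 24-mer. In intergenic domains the same combination gave 14.9% slow among 712. Over 6 kb, however, 5 of 11 intronic and 61 of 113 intergenic domains of this kind were slow (45.5% and 54.0%). All domains over 6 kb without the slow 24-mer were slow in 24.3% and 23.7% of cases. How much of the element each domain keeps was not tested.

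The fast 24-mer, from the LINE-1 reading frame, was found in 63 of 194 fast intronic domains (32.5%), in 10.7% of intermediate ones, in 1.05% of slow ones and in 0 of 136 residual ones. As with the slow 24-mer, the intronic counts made the choice. In intergenic domains, 25.3% of fast, 9.07% of intermediate and 1.06% of slow domains held it, the same order. On chromosomes 8, 11, X and Y these shares were 14.3%, 10.9% and 1.14%, closer together for fast and intermediate domains. Even so, 484 of the 557 intronic holders were intermediate (86.9%) and 11.3% were fast, beside 2.93% of all domains. Their median share of unique 31-mers was 4.17%. The commonest 24-mer, in 1874 intronic domains, did not separate these classes: it was held by 34.0% of fast, 33.4% of intermediate and 31.5% of slow domains. Only 1 residual domain (0.735%) held it. Its repeat family was not assigned.

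**Figure D3:**
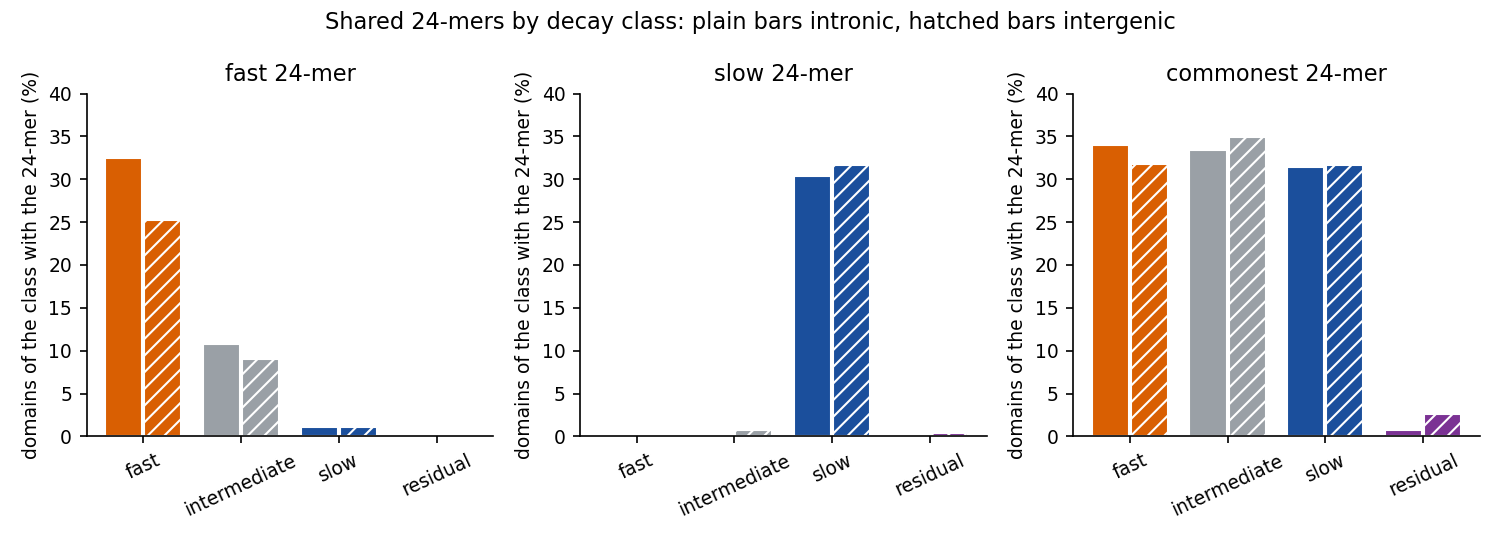
Share of the domains of each decay class (y axis, percent, 0 to 40) that hold the fast, the slow or the commonest 24-mer, in intronic domains (plain bars) and intergenic domains (hatched bars). The fast 24-mer is in 32.5% of fast and 1.05% of slow intronic domains, the slow one in 30.4% of slow and 0.266% of intermediate domains, and the commonest in 31.5% to 34.0% of these 3 classes.

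Domains with a primer binding site differed in class by tRNA. An exact site of any kind lay in 219 intronic domains, of which 162 were intermediate, 51 slow, 6 fast and 0 residual. The intermediate share of 74.0% (67.6 to 79.7) stood near the 77.8% of all intronic domains. The isoleucine site was in 97 domains, 87 intermediate (89.7%) and 10 slow. The phenylalanine site was in 51, with 25 intermediate and 26 slow (50.98%, 95% interval 36.6 to 65.2). The 14 domains with a proline site, the tRNA of murine leukaemia virus-like elements, were slow in 8 cases, with a wide interval (28.9 to 82.3). Lysine sites (22 domains), leucine sites (19) and glycine sites (17) gave 4, 3 and 1 slow domains (18.2%, 15.8% and 5.88%). Of all intronic domains 16.5% were slow, so the lysine and leucine shares stood near that value. In intergenic domains 61 of 90 with a proline site were slow (67.8%), and 39 of 106 with a glycine site (36.8%), beside 18.01% of all intergenic domains. A site gives the tRNA and not the family, which several families can share.

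Most of these elements pointed against their host gene. Of 242 exact sites in domains whose host genes lie on 1 strand, 177 were antisense to the gene (73.1%, 95% interval 67.1 to 78.6). The share was 85.5% of 55 sites in slow domains (73.3 to 93.5) and 68.5% of 181 in intermediate domains (61.2 to 75.2), and the 6 sites in fast domains were all antisense. By tRNA, 41 of 53 phenylalanine sites, 18 of 21 lysine sites and 64 of 97 isoleucine sites were antisense. The slow 24-mer gave a like share, with 240 of 304 copies antisense (78.9%). The fast 24-mer, read in the direction of the LINE-1 frame, was antisense in 324 of 554 copies (58.5%). With 1 mismatch allowed in the site, the antisense shares of slow and intermediate domains were 79.9% and 68.2%. Whether these 2 shares differ was not tested.

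Residual domains held little repeat sequence. Their median soft-masked (repeat) share was 13.96%, against 69.8% in intermediate, 74.8% in slow and 60.2% in fast intronic domains. Their median of 95.2% unique 31-mers compared with 52.4% in intermediate and 37.8% in slow domains. They were also richer in G and C, at 48.5% against 42.9% in intermediate domains, but poorer in CpG, with an observed over expected ratio of 0.163 against 0.224. Slow domains had the highest median CpG ratio of the 4 classes, 0.278. Among the 908 intronic domains with under 20% soft-masked sequence 9.14% were residual, and among the 2203 above 80% only 0.409%. In the first group the intergenic share was 5.07%, so intronic domains were residual more often at like repeat content too, and the difference within classes of soft-masked share was 0.857 points. The 24-mer that set residual domains apart the most was in 9 of 136.

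Residual domains were also more frequent near the starts of their host genes. Of 246 intronic domains centred within 5 kb of a coding transcript start of the host gene, 26 were residual (10.6%, 95% interval 7.02 to 15.1). Beyond 100 kb, 20 of 1967 were residual (1.02%, 0.622 to 1.57). Starts of other genes were not counted, so a domain may lie nearer to one of those. In first introns 3.90% of 1103 domains were residual, in inner introns 1.83% of 3930. Genes up to 50 kb long gave 5.14% and genes over 500 kb 0.922%. The median residual domain was 3.88 kb from the nearest coding exon of its host gene, against 8.75 to 9.54 kb in the other classes. Over 5 equal stretches of the gene from start to end, the residual share was 3.85% in the first and 1.64% in the last, with its lowest value, 1.45%, in the one before. On the same stretches the slow share lay between 15.3% and 17.8% and the fast share between 2.16% and 4.62%. Introns up to 5 kb had 6.13% slow domains among 163. Such introns cannot hold wide domains, and the part of width in this share was not tested.

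The 1 kb window sets where this set ends. Of 109 members whose nearest edge was 1 to 2 kb from a coding start, 18 were residual (16.5%). Of 107 domains left out because they reached within 1 kb, although inside a gene and off its exons, 18 were residual too (16.8%). A window of 5 kb in place of 1 kb lowered the residual share from 2.35% to 1.82%.

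**Figure D4:**
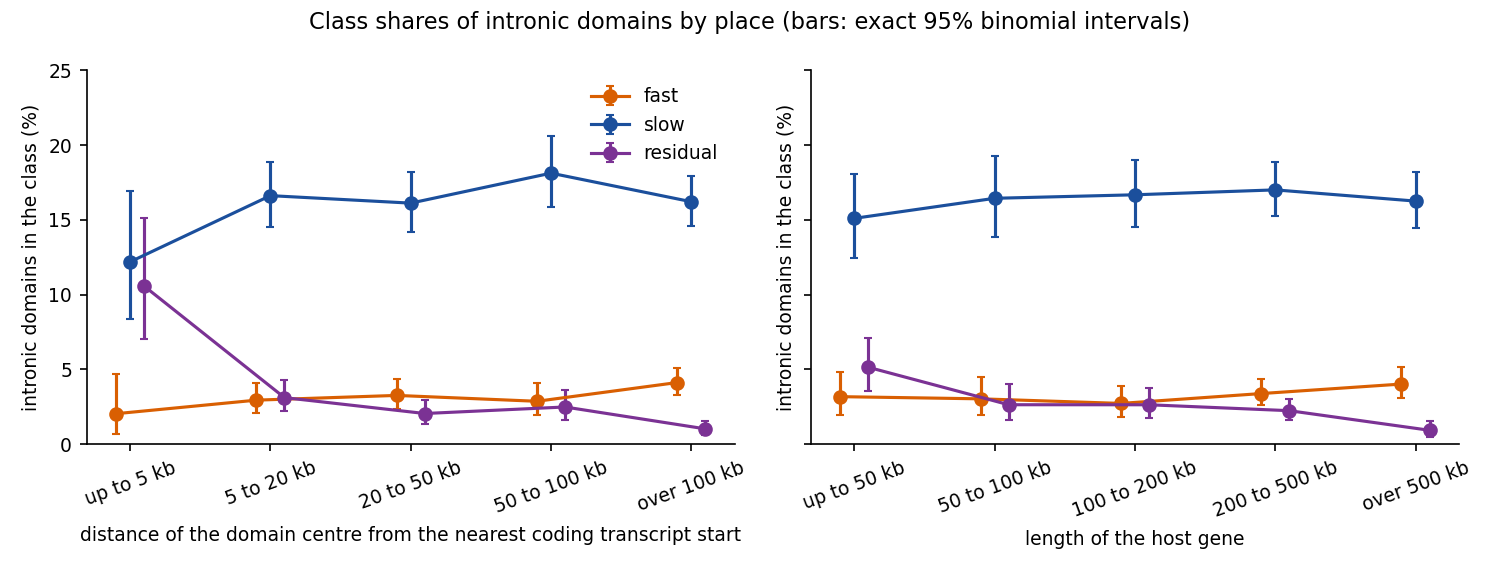
Fast, slow and residual shares of intronic domains (y axis, percent, 0 to 25), with exact 95% binomial intervals. The left panel gives them by distance of the domain centre from the nearest coding transcript start of the host gene. The right panel gives them by host gene length. The residual share is 10.6% within 5 kb of a start and 1.02% beyond 100 kb, and the slow share stays between 12.2% and 18.1% over the distances.

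Of the 26 residual domains within 5 kb of a start, those next named were chosen after their values were seen. Several lay in genes of developmental regulators: Sox6, a SOX factor of cartilage and neurons, Lhx4, a LIM homeobox factor of the pituitary, Tbx15, a T-box factor of the skeleton, Atoh8, a basic helix-loop-helix factor, and Rorb, a nuclear receptor of retina and cortex. Signalling genes among them were Fgf9, a fibroblast growth factor, and Kdr, the VEGF receptor of endothelium. The domain in intron 1 of Sox6 (chr7:116035201-116037000) was 1.8 kb wide, had 100% unique 31-mers and was centred 2.64 kb from the start. The one in intron 1 of Lhx4 (chr1:155745001-155749500) was 4.5 kb wide, also with 100% unique 31-mers, and centred 4.43 kb away. In contrast, the domain of Sprr2a2, a small proline-rich protein of the skin barrier with close copies beside it, had 0% unique 31-mers.

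Kcnq1, a potassium channel gene within an imprinted region, held the widest slow and the widest residual intronic domain. Its 8 domains covered 105 kb, 32.6% of the gene, with 3 intermediate, 3 slow and 2 residual. The slow domain of 32.1 kb in intron 16 (chr7:143211901-143244000) lay wholly inside Kcnq1ot1, the antisense noncoding RNA that silences neighbouring genes on the paternal chromosome. It had no slow 24-mer, 77.9% unique 31-mers, 56.5% soft-masked sequence and a GC content of 34.8%. The residual domain of 33.3 kb lay in the next intron, outside Kcnq1ot1, and overlapped the antisense transcript 4933417O13Rik along 27.4 kb. Its GC content was 49.2%, with 98.5% unique 31-mers and 9.49% soft-masked sequence. Thus the 2 widest domains of the gene were in different classes. Both had mostly unique 31-mers, but they differed in soft-masked share and GC content.

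Some other wide residual domains were made of repeated sequence. In intron 17 of Ulk4, a pseudokinase gene, a residual domain of 18.6 kb (chr9:121220701-121239300) was 98.5% soft-masked, with a GC content of 57.0%, a CpG ratio of 0.0268 and 9.68% unique 31-mers. C130026I21Rik, on chromosome 1, held 8 residual, 4 slow and 3 intermediate domains over 39.0% of its length. Its widest residual domain, of 13.8 kb, lay wholly inside the pseudogene Gm2619 and had 10.9% unique 31-mers, so reads may be shared with copies. Obox1, of the oocyte homeobox family, had 3 residual and 5 slow among 9 domains, and Raet1e, a stress ligand of natural killer cells, 2 residual among 7. All 9 domains of Obox1 and all 7 of Raet1e lay in introns that span other coding genes. A residual domain of 11.7 kb in intron 10 of Mapkap1 (chr2:34565101-34576800), a subunit gene of mTOR complex 2, was 12.4% soft-masked with 91.5% unique 31-mers.

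Host genes were long. Of 18128 protein-coding genes on the 17 autosomes, 2566 (14.2%) held an intronic domain. Their median length was 111 kb, against 13.97 kb for the others. Domains were found in 0.931% of genes up to 20 kb, 26.9% of those from 50 to 100 kb and 97.9% of the 192 genes over 500 kb. A single domain was the rule, in 1480 host genes, while 73 genes with 10 or more held 17.7% of all intronic domains. A residual domain lay in 118 genes, a fast one in 181 and a slow one in 735.

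The genes with the most intronic domains were Fhit, a tumour suppressor at a fragile site (29), Fgfr2 (27), Sntg1, a neuronal syntrophin (26), Agbl4, a deglutamylase of tubulin (25), Magi2, a synaptic scaffold (23), Lrp1b, an LDL receptor relative (22), and Cntnap2, a neurexin relative (22). The 3 overlapping gene models of the clustered protocadherin locus, Gm42416, Gm37013 and Gm37388, shared most of their 23, 22 and 22 domains. In Fgfr2, 22 of the 27 lay in an intron that also spans another coding gene. This was true of 268 intronic domains, and leaving them out gave a slow share of 16.4%. Fhit had 23 intermediate and 6 slow domains, from 1.2 to 9.6 kb wide, and 2 of the 6 slow ones held the slow 24-mer. Sntg1 had 23 intermediate, 2 slow and 1 fast domain, and both slow ones held it.

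Classes were mixed along each of these genes. Read from the 5′ end, the class changed 10 times over the 29 domains of Fhit, 4 times over the 22 of Cntnap2 and 11 times over the 21 of Cdh12, a cadherin. Cdh12 had the most fast domains, 3 of 21, and Pkhd1, Stpg2, a sperm-tail protein gene, Ntrk2, the TrkB receptor of BDNF, and Rbfox1, a neuronal splicing factor, had 2 each, as did others among the 12 genes with 2. Hs6st3, a heparan sulphate sulphotransferase gene, had 7 slow among 13 domains, all 13 in 1 intron and 3 of them with the slow 24-mer. Of the 280 genes with 5 or more intronic domains, 232 held at least 2 classes.

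**Figure D5:**
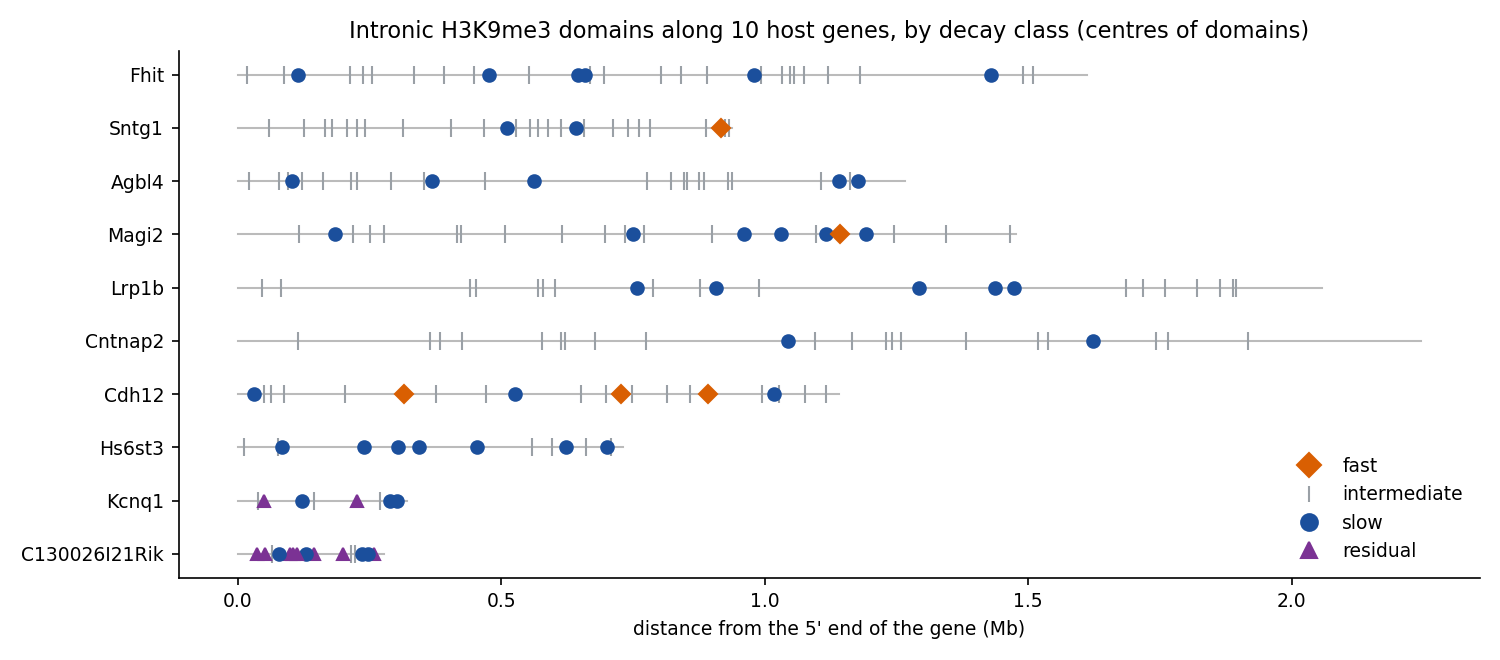
Intronic domains along 10 host genes, placed by the distance of the domain centre from the 5′ end of the gene (x axis, Mb), with the symbol giving the decay class. Slow domains (circles) are scattered between intermediate ones (ticks) in Fhit, with 6 slow of 29, and residual domains (triangles) appear only in Kcnq1 (2 of 8) and C130026I21Rik (8 of 15) among these genes.

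Neighbouring domains of 1 intron shared a class about as often as neighbours in different genes, while residual domains had residual neighbours mostly within an intron. Neighbours here are consecutive intronic domains, and any domains of other sets between them were passed over. Of 1451 neighbouring pairs within an intron, with a median gap of 18.9 kb, 64.9% had the same class. Among 1805 pairs in different introns of a gene the share was 65.4%. Of 2517 pairs in different genes, a median of 442 kb apart, 1611 had the same class. The neighbours of a slow domain were slow in 18.9% of cases within an intron and in 16.01% across genes, beside 16.5% of all intronic domains. For a residual domain these values were 29.5% and 4.00%, from 9 and 3 pairs of residual domains, and with a gap under 3 kb the first was 70.6%, from 6 pairs. Of the 9 pairs within an intron, 6 lay in C130026I21Rik, Obox1 and Raet1e, as did 3 of the 6 with a gap under 3 kb. Of 828 introns with 2 or more domains, 366 (44.2%) held more than 1 class.

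The widest fast domains, after the one in Pkhd1, were 8.4 kb in intron 12 of Stpg2 (chr3:139560001-139568400), 7.2 kb in intron 1 of Cpa6, a carboxypeptidase gene (chr1:10646101-10653300), and 6.9 kb in intron 7 of Esr1, the gene of oestrogen receptor alpha (chr10:4910401-4917300). Those of Stpg2 and Esr1 were 93.3% and 89.8% soft-masked, with 17.9% and 14.5% unique 31-mers, while that of Cpa6 was 44.2% soft-masked. The widest intermediate domains were in Nlrp9c, a member of the NLR family (21.9 kb), and in Malrd1 (19.8 kb). Among slow domains, 19.8 kb in intron 6 of Tubgcp2, a gamma-tubulin complex gene (chr7:140009401-140029200), filled nearly all of an intron of 21.7 kb.

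The list with the longest genes, of a median of 961 kb, held the most domains of the 19. Of the 66 genes on a list of synaptic adhesion and other very long, mostly neuronal genes, 66 held intronic domains. Among all coding genes over 500 kb, 97.9% did. The 66 genes held 602 domains, or 8.86 per Mb of gene body, beside 6.60 over all coding genes. Of the 602 domains 17.6% were slow, 3.32% fast and 0.498% residual, beside 17.1%, 3.25% and 2.28% over all host genes. Gabrg3, a GABA receptor subunit from a list of ionotropic receptors, had 5 intermediate and 4 slow domains. Axonemal dynein heavy chains, the motors of cilia, had domains in 10 of 12 genes (83.3%), with a median gene length of 246 kb. Of all coding genes from 200 to 500 kb, 83.7% had one. The density on this list was 14.5 per Mb, the highest of the 19 lists. There 36 of 41 domains were intermediate, 11 of the 41 in Dnah7c and 8 in Dnah7b, near-copies whose reads may be shared. C2H2 zinc finger genes had domains in 48 of 365 genes (13.2%), near the 14.2% of all coding genes, with 22 of 101 slow and 0 fast, Zfp697 holding 20.

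The list of pluripotency and early embryo genes held few domains, and its genes were mostly short. On it 2 of 33 genes had an intronic domain (6.06%), beside 14.2% of all coding genes. By length, 0.931% of all coding genes up to 20 kb and 11.8% of those from 20 to 50 kb had one. The 2 domains, both intermediate, were in Esrrb, a nuclear receptor of naive pluripotency, and Jarid2, a Polycomb partner. Whether the list differs from genes of like length was not tested. The median length on this list was 15.8 kb, against 18.03 kb over all coding genes, and its density was 1.66 domains per Mb of gene body, against 6.60. Olfactory receptors, mostly short genes, had a domain in 10 of 1041 (0.961%), near the share of all genes up to 20 kb. The lists that follow stand beside 14.2% of all coding genes with a domain. Over all host genes 17.1% of domains were slow and 2.28% residual. Median gene lengths on these lists, from 42.8 to 106 kb, were above that of all coding genes. Among the H3K9 methylation genes 7 of 30 had 10 domains, 8 intermediate and 2 residual. The residual ones were in Prdm16, a PRDM family regulator of brown fat, and in Pphln1, which encodes the periphilin subunit of the HUSH complex; the Pphln1 domain had 0% and the Prdm16 domain 100% unique 31-mers. Of 25 domains in 13 of 38 collagen genes 3 were residual (12%), those of Col13a1, Col15a1 and Col19a1 near a gene start, and of 23 in 13 of 44 imprinted genes 2, both in Kcnq1. Germline and meiosis genes had domains in 9 of 37 genes, with 5 of 24 slow, and Sycp1, of the synaptonemal complex, held 5 intermediate ones.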

How the data were processed

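The authors deposited 1 table of H3K9me3 domains with a chromosome, a start, an end and, as the only readout, a decay class in words, a value of no numerical unit. The submitters' processing notes list Bowtie2 2.3.4.1, deepTools, bedtools, SAMtools 1.1 and the build mm10. How domains and classes were called, and how reads with several matches were placed, is not stated in the sources. All 43039 domains lie on a 300-bp grid. The members and gene lists were chosen with earlier results of these data known.

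Overlap meant at least 1 bp with GENCODE vM21 features. Where a domain lay in several coding genes (102 domains), the shortest gave its position, and each counted as a host. Binned distances to starts and exons were taken to those of that gene alone. Of the 5790, 5531 lay in a gap between merged coding exons of that gene and have an intron number. The other 259 lay in no such gap. An exon of another transcript type was overlapped by 383 members, of which 22.5% were slow and 5.48% residual. Of the members without such an overlap, 16.0% were slow and 2.13% residual. Sequence came from GRCm38.p6 and coordinates are 1-based. GC, CpG ratio and soft-masked share were computed per domain, and copies of 31-mers were counted in the genome every 100 bp. Of 124 primer binding site sequences from 403 tRNA genes, 2 shared between amino acids were dropped. Shared 24-mers needed 15 distinct 3-mers. Shares have exact Clopper-Pearson 95% intervals; the interval of the intronic minus intergenic difference is Newcombe's. Domains are not replicates, so no test was run.

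Named host genes are the 10 with the most intronic domains, the 5 with the most fast, slow and residual domains, up to 3 per gene list, and those of the 5 longest domains of each class, with ties broken by covered bases. Other genes were named after their values were seen: those of residual domains near a start, and Pag1 and BC067074, whose domains are the widest of those searched for sequences (in a numbered intron) that hold the printed parts antisense to the gene. The functions were tested on simulated data. Software was matplotlib 3.10.9, scipy 1.17.1, pandas 2.3.3, numba 0.67.0, numpy 2.4.6 and Python 3.11.15. Alternatives changed the rule, the weighting, the chromosomes, the mappability and the mismatches.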

Additional observations from a re-analysis of the deposited data

How the results depend on the processing

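Class shares moved with the weighting and with the domains kept. Weighted by covered length, the fast, intermediate and slow shares of intronic domains were 2.90%, 68.2% and 26.5%. With chromosomes 8, 11, X and Y added, the intermediate, slow and residual shares were 72.2%, 20.0% and 4.51%. Domains with at least 50% unique 31-mers gave 82.0%, 10.6% and 3.63%, and those with less gave 73.7%, 22.3% and 1.07%, with 2.86% fast. Placing domains by their midpoint gave 75.9% intermediate and 3.59% residual. The residual share was 2.88% with each host gene weighted equally and 1.82% with a promoter window of 5 kb. Of the differences from intergenic domains, 2 reversed: fast at -0.197 points with the 4 chromosomes added, and slow at 1.08 points within width classes. The slow difference was -0.282 within classes of soft-masked share, -0.148 with those chromosomes and -0.350 at 50% or more unique 31-mers. The intermediate one was -2.88 within width classes, -2.38 by midpoint and -2.43 at 50% or more unique 31-mers. The residual one was 0.857 within classes of soft-masked share, 1.83 with those chromosomes, 2.54 by midpoint and 2.12 at 50% or more unique 31-mers. The cause of each shift was not tested. Leaving out each chromosome in turn gave differences of 0.582 to 0.912 points (fast), -0.861 to -0.0424 (intermediate), -1.96 to -1.27 (slow) and 1.07 to 1.42 (residual). The antisense share of primer binding sites was 72.9% with 1 mismatch and 75.1% with 1 site per domain. Shared sequences of 20 or 31 bases, tried after seeing the data, were also picked for setting slow intronic domains apart. Of their intronic holders, 96.4% and 96% were slow. A high slow share follows from that choice, so these values are a description and cannot test the result. No paired analysis was possible because the table gives 1 class per domain and no value per sample. Depth limits cannot be given.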
